A study of Homo sapiens with 6 samples.

Results

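The genes described here are 10 regulators of apoptosis from the BCL2 family, chosen by name from a table of 26347 gene rows: the effectors BAK1 and BAX, the guardians BCL2, MCL1, BCL2L1 and BCL2A1, and the BH3-only genes BMF, BCL2L11, BID and BBC3. All 10 had a row, and 9 passed the filter on low counts and were tested. BBC3 did not pass, with 1 to 8 counts per library. Total RNA was sequenced from THP-1, an established monocytic cell line of human leukaemia origin, and the cells had been transfected 24 h earlier with a synthetic microRNA (a mimic). The control group (3 libraries) received a negative control microRNA mimic and the other group (3 libraries) a miR-125a-5p mimic, and the labels name no other genetic change or agent in either group. Macrophages appear in the series title, but the labels name monocytic cells and give no step that would turn the cells into macrophages. No source says that the libraries of a group came from separate cultures, so the spread behind each p-value may be technical.

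The BCL2 family decides whether a cell opens the outer membrane of its mitochondria, the step that commits most cells to apoptosis. The effectors BAK1 and BAX form the pores, the guardians bind the effectors and their activators and keep the membrane closed, and the BH3-only proteins carry stress signals by occupying guardians or activating effectors. Monocytic cells are known to depend on short-lived guardians such as MCL1, and the miR-125 family is known for repressing BAK1 through its 3′ untranslated region (3′ UTR).

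The mimic pairs through its seed, bases 2 to 8, shown in capitals below beside miR-125b-5p, which has the same seed. Both sequences are from RefSeq on GRCh38.p14.
miR-125a-5p: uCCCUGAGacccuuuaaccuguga
miR-125b-5p: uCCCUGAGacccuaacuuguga

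A full match to the seed followed by an A, the 8mer CTCAGGGA, was searched on the sense strand of the longest 3′ UTR annotated in GENCODE release 29 (GRCh38, whereas the counts were made on hg19). It was found in 4 of the 10 genes: BAK1, BCL2, MCL1 and BMF. Among 12848 tested genes with an annotated 3′ UTR, 860 (6.69%) had one. These 4 sites, in capitals within 30 bases of transcript sequence, are shown because the genes that carry them include the 3 with the smallest p-values below. All lie on the minus strand.
BAK1, chr6:33573155-33573184, exon 7 of 7: gcagttggactCTCAGGGAttctgggcttg
BCL2, chr18:63126188-63126217, exon 2 of 2: ccccggcgggcCTCAGGGAacagaatgatc
MCL1, chr1:150574744-150574773, exon 4 of 4: cttacgcttctCTCAGGGAaaaacatgcag
BMF, chr15:40091142-40091171, exon 5 of 5: ctccagcagacCTCAGGGAgggttgagttt

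The 4 genes differed in how constant the site was across annotated transcripts. The 8mer was in 3 of 3 annotated 3′ UTRs of BAK1, 2 of 3 of MCL1, 2 of 5 of BMF and 1 of 3 of BCL2. BAK1 held 3 further matches in a 3′ UTR of 1450 bases, 1 each of the classes 7mer-A1 (TCAGGGA), 7mer-m8 (CTCAGGG) and 6mer (TCAGGG, which lies within all the longer ones). They are shown because BAK1 had the largest difference among the 9 tested genes.
BAK1 7mer-A1, chr6:33572896-33572925: ggtttgttataTCAGGGAaaaggagtaggg
BAK1 7mer-m8, chr6:33572702-33572731: gtctaggtctcCTCAGGGtggggggtgaca
BAK1 6mer, chr6:33572645-33572674: ggtcttgggggTCAGGGgggagaagttctt

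The longest 3′ UTR of BCL2 was 5279 bases with 5 matches of at least 6 bases, that of BMF 3897 bases with 4, and that of MCL1 2824 bases with 1. The median 3′ UTR of all searched genes was 1619.5 bases, so these 3 had long ones and BAK1 did not. BBC3 had a 7mer-A1 as its best match, BCL2L11 and BCL2L1 a 6mer, and BAX, BID and BCL2A1 had no match of 6 bases in their longest 3′ UTR. A match is a run of letters and was not tested for pairing in these cells.

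Depth ran from 8256149 to 10257791 counts per library. Levels are given as CPM, the counts of a gene divided by the library total (adjusted with trimmed-mean-of-M-values factors) and put on one common scale. Control library 1 stood apart on the first principal component (25% of the variance), at -38.2 against 1.14 to 16.3 for the other 5. On the second (21.2%) miR-125a-5p libraries 3 and 2 lay apart, at 31.1 and -21.5 against -9.88 to 5.24 for the rest. Control library 1 had the highest CPM of all 6 libraries in 7 of the 9 tested BCL2 family genes and in 21.3% of all tested genes. Fold changes and medians of the family without that library are given beside those of all 6. All 10 monocytic markers looked up were tested, with sums of 3020 to 3110 CPM in control and 2890 to 3060 CPM in miR-125a-5p libraries. The sums hide differences in both directions: LYZ had means of 384 and 455 CPM and CSF1R 790 and 702 CPM in control and miR-125a-5p libraries. MPO was low, at 2.53 and 1.99 CPM. Of 14 markers of other cell types 10 had any count, with sums of 309 to 327 and 285 to 342 CPM, nearly all from PECAM1, which monocytes also express. CD3E, KRT18 and HBB had 0 counts in every library.

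The comparison asked which family transcripts differed after the miR-125a-5p mimic. None of the 9 tested genes passed at 0.05 by the quasi-likelihood test of edgeR, with p-values adjusted by Benjamini-Hochberg across all 14731 tested genes, and DESeq2 and limma voom also called 0. In all, 4 genes passed as lower (0.0272% of those tested) and 0 as higher. BAK1, BMF and MCL1 were lower at an unadjusted p under 0.05 and no member was higher, where 3.22% of all tested genes were lower and 2.69% higher at that level. That count of 3 was 2 by DESeq2 or limma voom and without control library 1 (BAK1 and BMF) or 2 (BAK1 and MCL1), and 1, BAK1, without miR-125a-5p library 2 or 3. All 9 log2 fold changes were negative or, for BCL2L11, 0 to 2 decimals, with a median of -0.21, and 49.8% of all tested genes were negative, with a median of 0.0011. Without control library 1 the change was negative in 6 of the 9 genes, with a median of -0.09. In bulk RNA, fewer transcripts per cell and a smaller share of cells with the transcript cannot be told apart.

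**Figure D1:**
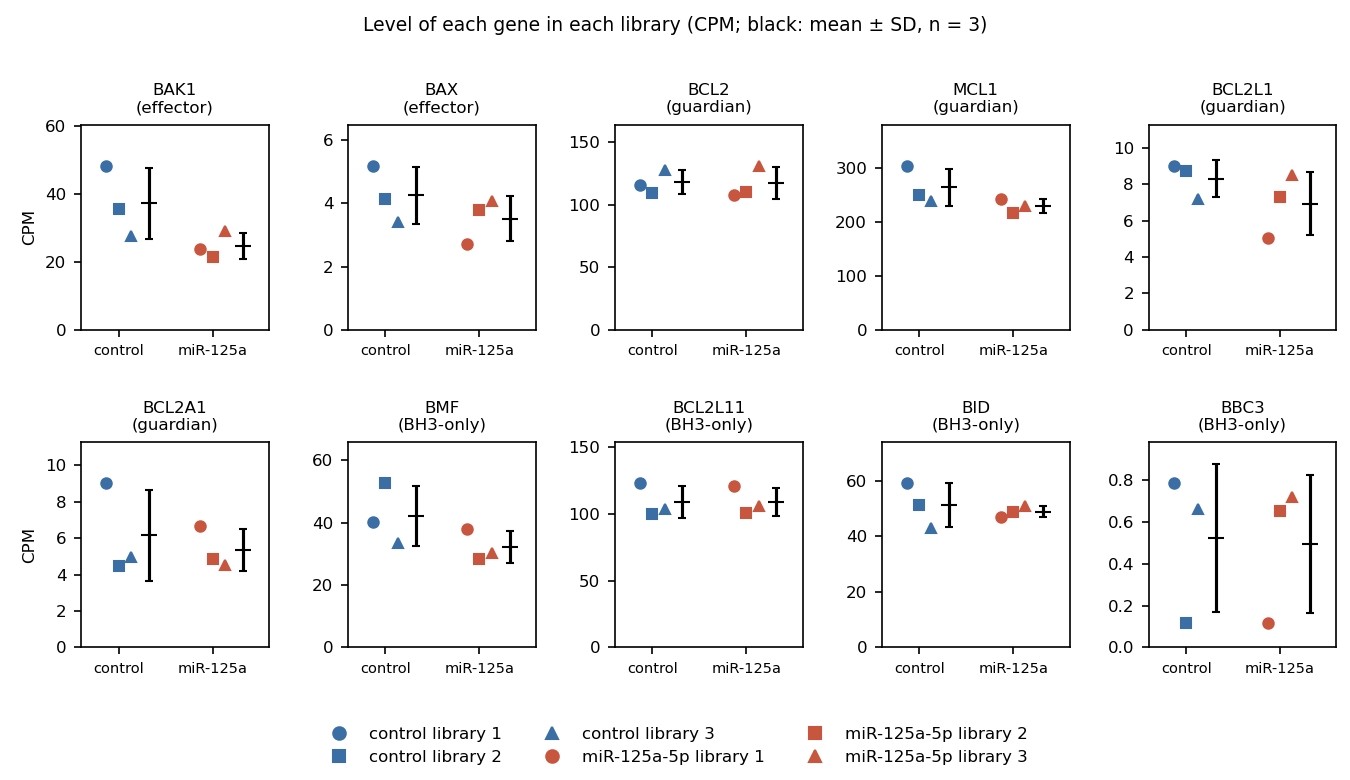
CPM (vertical axes, linear from 0) of the 10 genes in each of the 3 control and 3 miR-125a-5p libraries, with the mean and SD in black. The groups overlap for every gene: BAK1 runs from 27.8 to 48.4 CPM in control and from 21.5 to 29.1 CPM in miR-125a-5p libraries.

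BAK1, the effector that sits in the mitochondrial membrane of resting cells, had the largest difference. It stood at 48.4, 35.7 and 27.8 CPM in control libraries 1, 2 and 3, and at 23.7, 21.5 and 29.1 CPM in miR-125a-5p libraries 1, 2 and 3. The groups overlapped only through control library 3, which lay below miR-125a-5p library 3. The means were 37.3 ± 10.4 CPM (SD, n = 3) in control and 24.7 ± 3.89 CPM (SD, n = 3) in miR-125a-5p libraries. The fitted log2 fold change was -0.60 (SE 0.17, 95% interval -0.95 to -0.24), or a level 1.51-fold lower, with an unadjusted p of 0.00198 and an edgeR adjusted p of 0.455.

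BAK1 ranked 61st by p among all tested genes and 42nd among those with a negative change. Leaving out control library 1 moved the size most: without it the log2 fold change was -0.36 (95% interval -0.70 to -0.02, edgeR adjusted p = 0.740). The call changed with the filter on low counts: with all 21274 genes of any count BAK1 had the same -0.60 and an edgeR adjusted p of 0.0348. Over 11 alternatives its change was negative in 11, with adjusted p from 0.0348 to 0.992. On the opposite strand, 91 bases of BAK1 exons overlap GGNBP1, a row with 0 to 10 counts per library.

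BAX, the effector that moves from the cytosol to the mitochondria on activation, was far scarcer. It had 53, 35 and 31 raw counts in control libraries 1 to 3 and 23, 35 and 34 in miR-125a-5p libraries 1 to 3, or 5.19, 4.14, 3.42, 2.70, 3.80 and 4.06 CPM in the same order. The groups overlapped, with the lowest value in miR-125a-5p library 1. The log2 fold change was -0.27 (95% interval -0.98 to 0.43, edgeR adjusted p = 0.952), so at these counts the interval spans the value fitted for BAK1 as well as 0. Without control library 1 it was -0.10.

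Among the guardians MCL1, a short-lived protein that holds BAK1 in check, was the most abundant. It stood at 304, 249 and 239 CPM in control libraries and at 242, 216 and 230 CPM in miR-125a-5p libraries. Control library 3 lay just inside the range of the miR-125a-5p group, and control library 1 was well above all others. The log2 fold change was -0.21 (SE 0.10, unadjusted p = 0.0488, edgeR adjusted p = 0.843), and -0.09 without control library 1.

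BCL2, the founding guardian of the family, also carries the 8mer and was level between the groups. It had 116, 109 and 128 CPM in control libraries and 108, 110 and 131 CPM in miR-125a-5p libraries, with each group spanning nearly the same range. The log2 fold change was -0.01 with a 95% interval of -0.23 to 0.20 (edgeR adjusted p = 0.990), and -0.03 without control library 1. The interval of BCL2 lay just above that of BAK1 (-0.95 to -0.24). Without control library 1 the intervals overlapped, at -0.25 to 0.20 for BCL2 and -0.70 to -0.02 for BAK1. The difference between these genes was not tested.

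BCL2L1, which encodes the guardian BCL-XL and the shorter pro-apoptotic form BCL-XS, and BCL2A1, an NF-kB-induced guardian of blood cells, had few counts. BCL2L1 had 43 to 92 counts per library, with 9.01, 8.75 and 7.17 CPM in control and 5.04, 7.27 and 8.49 CPM in miR-125a-5p libraries. Its log2 fold change was -0.26 (95% interval -0.79 to 0.26), -0.08 without miR-125a-5p library 1 and -0.20 without control library 1. BCL2A1 had 9.01, 4.49 and 4.96 CPM in control and 6.68, 4.88 and 4.54 CPM in miR-125a-5p libraries, with library 1 the highest of each group. Its log2 fold change was -0.21 (95% interval -0.84 to 0.43), and 0.18 without control library 1. A gene-level count does not separate BCL-XL from BCL-XS.

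BMF, a BH3-only protein held at the cytoskeleton until it is released to bind guardians, had the second largest difference. Its levels were 40.1, 52.6 and 33.6 CPM in control and 37.9, 28.3 and 30.4 CPM in miR-125a-5p libraries. The groups overlapped through miR-125a-5p library 1, which lay above control library 3, and here control library 2 was the highest. The log2 fold change was -0.39 (SE 0.16, 95% interval -0.71 to -0.07, unadjusted p = 0.0200, edgeR adjusted p = 0.739). It was -0.20 without control library 2 and -0.42 without control library 1.

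BCL2L11, which encodes BIM, a BH3-only protein that binds all guardians, did not differ beyond its spread, at 123, 100 and 104 CPM in control and 121, 101 and 106 CPM in miR-125a-5p libraries. Its log2 fold change was 0 with a 95% interval of -0.22 to 0.22, and 0.09 without control library 1. On the opposite strand 727 bases of its exons overlap MIR4435-2HG, a non-coding RNA at 21.2 ± 2.70 and 19.7 ± 2.74 CPM (SD, n = 3 each). The strand setting of the counting is not given in the sources used here, so reads of that stretch cannot be assigned. The same limit holds for 461 exon bases of BMF that overlap BMF-AS1 and 1424 of BCL2L1 that overlap ABALON. Both lie on the opposite strand, and neither was found by name among the gene rows.

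BID, which links death receptors to mitochondria once caspase-8 has cut it, had 59.0, 51.2 and 43.1 CPM in control and 47.0, 48.8 and 50.8 CPM in miR-125a-5p libraries. The miR-125a-5p values lay inside the control range, and the log2 fold change was -0.07 (95% interval -0.32 to 0.19), and 0.05 without control library 1. BBC3, which encodes the p53-induced BH3-only protein PUMA, had 8, 1 and 6 counts in control and 1, 6 and 6 counts in miR-125a-5p libraries. No difference was detectable at this depth.

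**Figure D2:**
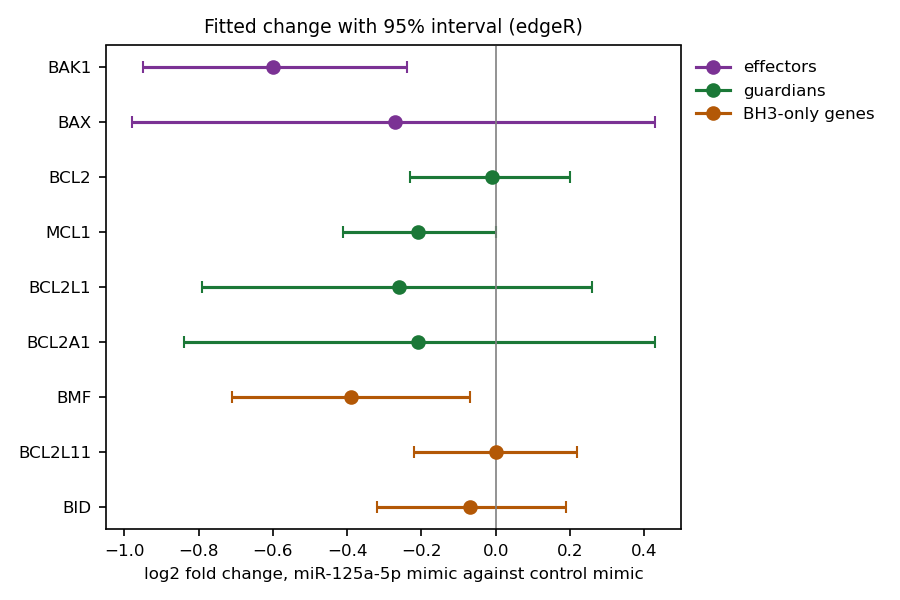
Fitted log2 fold change (horizontal axis, miR-125a-5p against control mimic) of the 9 tested genes with 95% intervals, coloured by class. The intervals of BAK1 (-0.95 to -0.24) and BMF (-0.71 to -0.07) lie below 0, that of MCL1 ends at 0, and none of the 3 passed the adjusted threshold.

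By class, the median log2 fold change was -0.44 for the 2 effectors, -0.21 for the 4 guardians and -0.07 for the 3 tested BH3-only genes. BAK1 (-0.60) and BAX (-0.27) are the whole of the first class, and the classes were not tested against each other. Without control library 1 the 3 medians were -0.23, -0.06 and 0.05. The 4 genes with an 8mer had a median of -0.30, from -0.60 (BAK1) to -0.01 (BCL2), and the 5 tested genes without one had a median of -0.21, from -0.27 (BAX) to 0 (BCL2L11). Without control library 1 these medians were -0.23 and 0.05. Control library 1 was the highest in 2 of the 4 and in 5 of the 5. BAK1, MCL1 and BMF, the 3 members with an unadjusted p below 0.05 (where 3.22% of tested genes were lower), are all among the 4, and of them BAK1 alone was so without miR-125a-5p library 2 or 3. The p-values also follow the SE, which is larger at low counts. BAX, BCL2L1 and BCL2A1, without the 8mer, had -0.27, -0.26 and -0.21 with SEs of 0.34, 0.26 and 0.31. MCL1 had -0.21 with an SE of 0.10. BCL2L11 and BID, also without the 8mer, had 0 and -0.07 with SEs of 0.11 and 0.13. Groups did not overlap for 0 of the 9 genes, where 5.90% of all tested genes were lower and 5.31% higher without overlap.

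**Figure D3:**
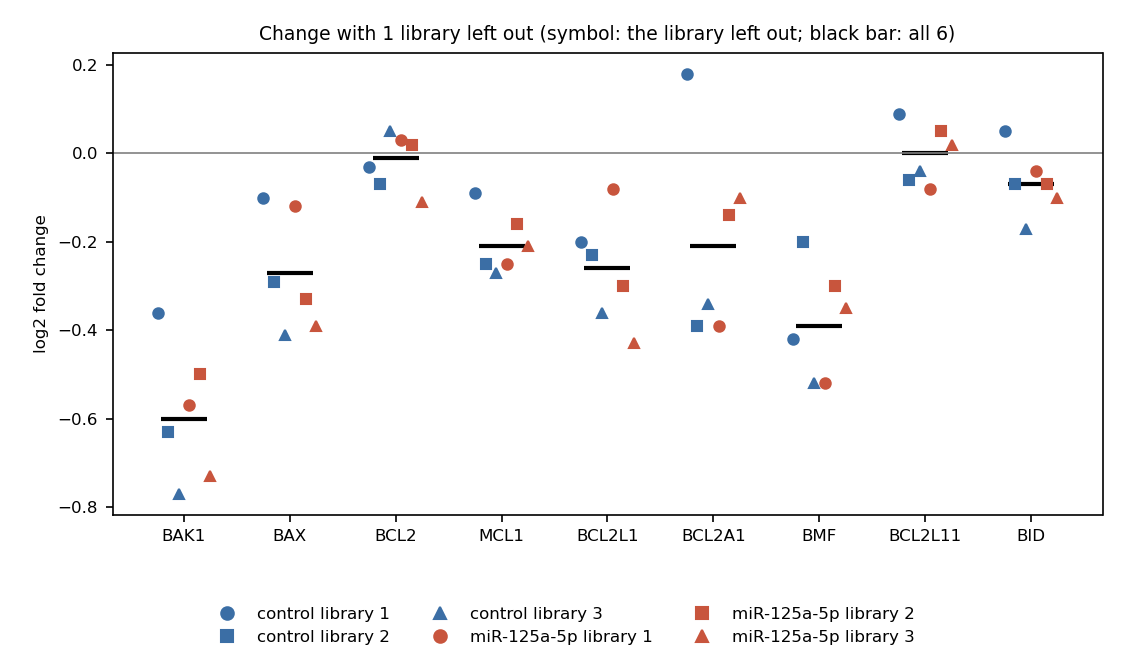
Log2 fold change (vertical axis) of each tested gene with 1 library left out, the symbol naming the library, and with all 6 libraries as a black bar. BAK1 stays between -0.77 and -0.36, whereas BCL2, BCL2A1, BCL2L11 and BID cross 0.

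Levels of different genes were compared as CPM per kilobase of merged exons. MCL1 led in control libraries, with 60.4 ± 7.99 CPM per kilobase (SD, n = 3), and was separate from every other gene. BAK1 (16.9 ± 4.70) and BCL2L11 (16.4 ± 1.82) followed and overlapped. BID (11.5 ± 1.78), BCL2 (10.0 ± 0.839), BMF (7.73 ± 1.77) and BCL2A1 (5.65 ± 2.28) came next, and each overlapped its neighbours among these 4. BCL2L1 (2.51 ± 0.301), BAX (1.64 ± 0.345) and BBC3 (0.164 ± 0.111) came last, each below the one before it in all 3 control libraries.

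In miR-125a-5p libraries the order was the same except that BCL2L11 (16.4 ± 1.55 CPM per kilobase) stood above BAK1 (11.2 ± 1.76), with BCL2L11 at 15.2 to 18.1 and BAK1 at 9.71 to 13.1. The order of neighbours depends on the length used. With the longest transcript in place of merged exons, BAK1 came 4th in control libraries, after BCL2L11 and BID, and BCL2L1 and BAX (3.18 and 3.13 CPM per kilobase) were level. MCL1 stayed 1st and BBC3 last.

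**Figure D4:**
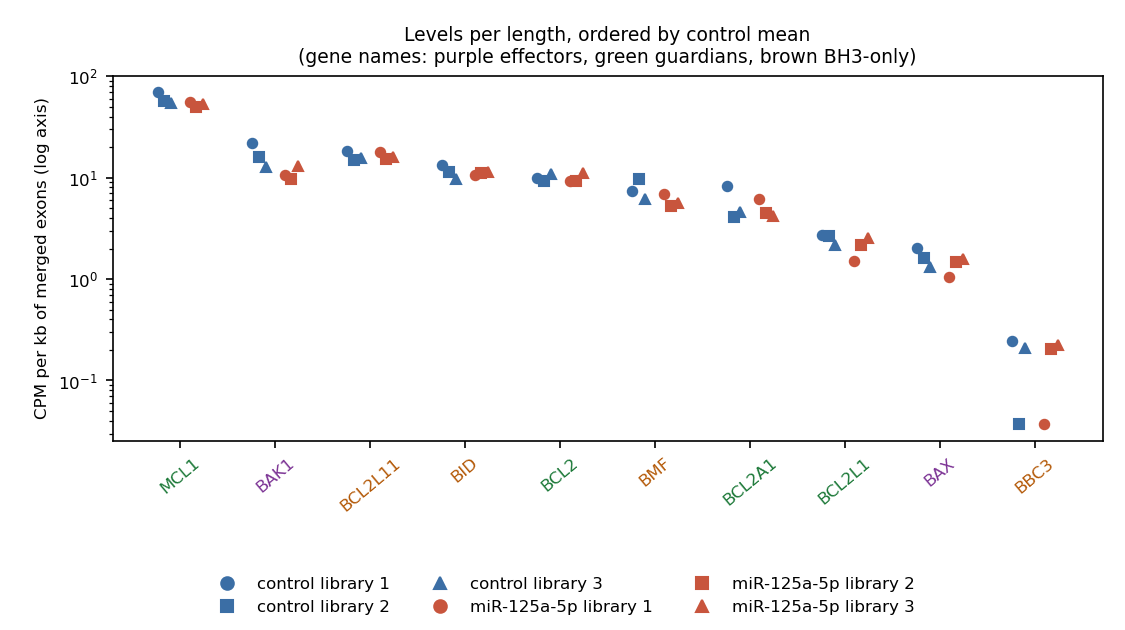
Level of each gene in each library as CPM per kilobase of merged exons (log axis), ordered by the control mean. MCL1 is the highest at 49.4 to 69.6 over the 6 libraries, and BAX, at 1.04 to 2.01, is the lowest of the 9 tested genes.

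Sums, shares and ratios here and in the next paragraph cover only the 10 members. They are of transcripts, and protein was not measured. Left out are, for example, the guardian BCL2L2 (23.9 ± 1.46 CPM in control, 22.3 ± 1.64 CPM in miR-125a-5p libraries) and the BH3-only gene PMAIP1 (35.9 ± 2.05 and 32.5 ± 3.74 CPM). BAK1 made up 86.9% to 91.6% of the summed effector transcript level per kilobase over the 6 libraries, or 77.6% to 85.1% with the longest transcript. MCL1 made up 76.9 ± 1.21% of the guardian level in control and 75.6 ± 0.979% in miR-125a-5p libraries (SD, n = 3 each), BCL2 12.9 ± 2.10% and 14.3 ± 1.52%, BCL2A1 7.03 ± 1.86% and 7.09 ± 1.32%, and BCL2L1 3.20 ± 0.357% and 3.03 ± 0.809%. The shares of this guardian sum thus differed by less than the spread within groups for BCL2, BCL2A1 and BCL2L1, and by about that spread for MCL1.

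Summed effector level was 23.9, 17.7 and 13.9 CPM per kilobase in control libraries 1 to 3 and 11.7, 11.2 and 14.7 in miR-125a-5p libraries 1 to 3. Summed guardian level was 90.4, 73.0 and 72.4 in control and 72.1, 65.4 and 70.6 in miR-125a-5p libraries, so the groups did not overlap, by a margin far smaller than the spread within either group. BH3-only genes summed to 39.3, 36.3 and 31.7 in control and 35.7, 31.6 and 33.1 in miR-125a-5p libraries. The ratio of guardians to effectors was 3.79, 4.12 and 5.21 in control and 6.14, 5.85 and 4.80 in miR-125a-5p libraries, and the groups overlapped because control library 3 exceeded miR-125a-5p library 3. The ratio of MCL1 to BAK1 showed the same overlap, at 3.18, 3.53 and 4.36 in control and 5.16, 5.08 and 4.02 in miR-125a-5p libraries.

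**Figure D5:**
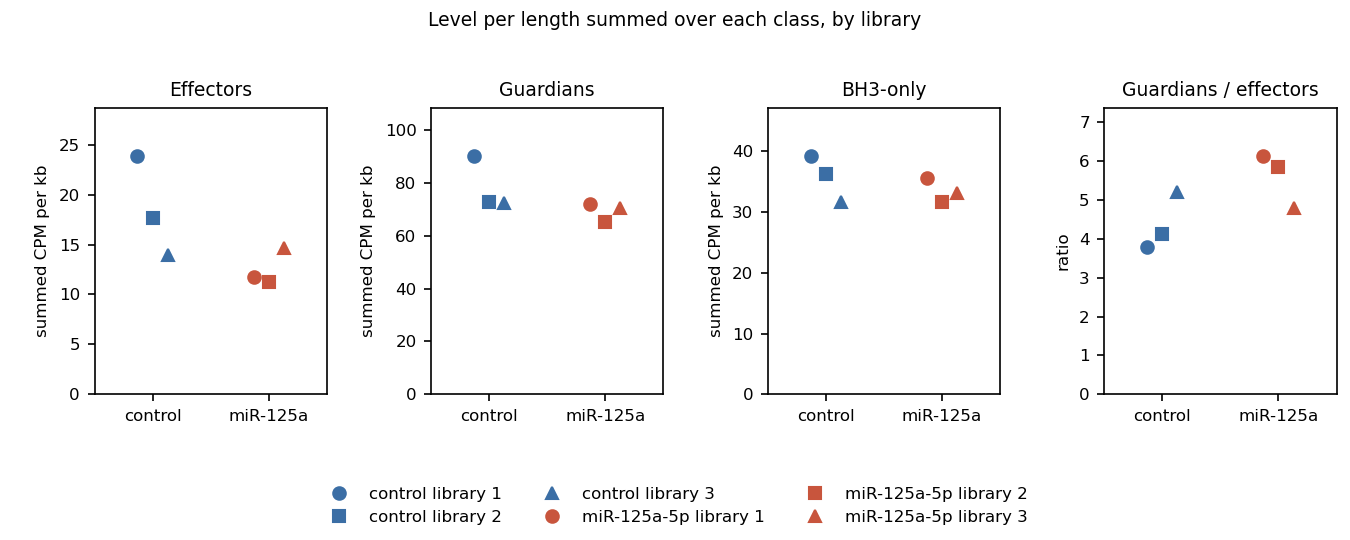
Summed CPM per kilobase of the effectors, guardians and BH3-only genes among the 10 members, and the ratio of guardians to effectors, in each library (linear axes from 0). Control library 1 is the highest in all 3 sums and has the lowest ratio, 3.79.

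The 5 genes most like BAK1 over the 6 libraries were taken from 11591 genes with a mean of at least 5 CPM, by the correlation (Pearson's r) of log2 CPM. They were TMEM39A (r = 0.992), USP8 (0.992), NRN1 (0.992), CHORDC1P4 (0.992) and GMIP (0.991). All 5 were highest in control library 1, and none passed the edgeR test, with log2 fold changes from -0.50 (NRN1) to -0.10 (USP8). An r of at least 0.9 was reached by 158 genes (1.36%). Within the family, r with BAK1 was 0.91 for MCL1, 0.79 for BAX, 0.76 for BID, 0.69 for BCL2L1 and 0.60 for BMF. It was 0.52 for BCL2A1, 0.37 for BCL2L11 and 0.08 for BCL2. Each r rests on 6 values per gene and is a description of these libraries.

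Other genes of the family and of the steps around it were read from lists chosen with earlier results of these data known, and 0 of their 52 tested genes passed in either direction. Of 12 further BCL2 family genes 8 were tested, 7 with a negative log2 fold change and a median of -0.12, and 0 had an unadjusted p under 0.05. BCL2L13, a mitophagy receptor with BCL2 homology, had -0.22 (59.7 ± 6.01 and 51.3 ± 1.55 CPM) and BCL2L12 -0.54 (7.49 ± 0.466 and 5.12 ± 2.27 CPM). These 2 were lower without overlap of the groups, where 5.90% of all tested genes were. For BCL2L12 the margin was 6.95 CPM in control library 1 against 6.93 CPM in miR-125a-5p library 3, with miR-125a-5p library 1 at 2.58 CPM. The BH3-only genes BIK and PMAIP1, which encodes NOXA, had -0.49 and -0.14, and -0.79 and -0.10 without control library 1. BCL2L10, BCL2L14, BOK and HRK did not pass the filter, with means under 1 CPM.

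Downstream of the pores, 18 of 18 genes of the apoptosome, caspases and their inhibitors were tested, 7 negative and 11 positive, with a median of 0.04 and 0 at an unadjusted p under 0.05. CASP2, an initiator caspase, had the smallest p, with a log2 fold change of -0.19 (203 ± 12.1 and 178 ± 9.26 CPM, edgeR adjusted p = 0.843). AIFM1, a mitochondrial flavoprotein, had 0.23 and CYCS, cytochrome c, 0.19. Without control library 1 CYCS had 0.33 (edgeR unadjusted p = 0.00345, adjusted p = 0.480). It was the 1 gene of this list at an unadjusted p under 0.05 in that fit, where 6.36% of all tested genes were in either direction. APAF1, the scaffold of the apoptosome, was level at 129 ± 12.0 and 130 ± 8.80 CPM.

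In the death receptor arm 7 of 10 tested genes were negative, with a median of -0.16, and 3 were lower at an unadjusted p under 0.05, against 3.22% of all tested genes. Control library 1 was the highest in 6 of the 10, these 3 among them, and without it the median was -0.08 and 0 were lower at that p. FAS, a death receptor, had a log2 fold change of -1.40 (95% interval -2.43 to -0.36, edgeR adjusted p = 0.655) from low and scattered levels of 3.54 ± 2.23 and 1.36 ± 0.689 CPM, and -0.75 without control library 1. CFLAR, which encodes the caspase-8 inhibitor FLIP, had -0.24 (467 ± 47.0 and 397 ± 6.24 CPM, no overlap), CASP10 -0.29 and the TRAIL receptor TNFRSF10B -0.34. Without control library 1 these were -0.16, -0.23 and -0.12. TNFRSF10A, another TRAIL receptor, had 0.54 (3.24 ± 0.488 and 4.67 ± 1.14 CPM, edgeR adjusted p = 0.884), and 0.44 without control library 1. It was the 1 gene of this arm that was higher without overlap, and CFLAR the 1 that was lower. Of all tested genes 5.31% were higher and 5.90% lower without overlap. Among 16 genes that act on BCL2 family proteins or genes, 7 were negative and 9 positive, with a median of 0.01, and at an unadjusted p under 0.05 1 was lower and 2 higher, with and without control library 1. VDAC2, the mitochondrial channel that binds BAK1, had 0.28 (136 ± 11.2 and 165 ± 13.2 CPM, edgeR adjusted p = 0.627), VDAC1 0.20, DYNLL1, a dynein light chain, 0.12, and FOXO3, a transcription factor of BH3-only genes, -0.22 (192 ± 9.73 and 165 ± 10.9 CPM). VDAC2, VDAC1 and FOXO3 were separate between the groups, VDAC2 only by 149 CPM in control library 3 against 150 CPM in miR-125a-5p library 3, and none passed. In this list 1 gene was lower and 3 were higher without overlap, where 5.90% of all tested genes were lower and 5.31% higher.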

How the data were processed

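The deposited file is a single table of the authors' raw gene counts for 6 libraries (3 control mimic, 3 miR-125a-5p mimic). The submitters' processing notes name hg19 as the build and bcl2fastq, TopHat and edgeR as tools, without versions. Which program counted reads, on which annotation and with which strand setting, is not given in the sources used here. Columns were matched to libraries by the names in the labels. Gene identifiers matched a RefSeq gene table (GRCh38.p14, names only) for 26204 rows (99.5%).

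The main test was glmQLFTest after glmQLFit of edgeR 4.0.16 (R 4.3.3), without covariates. The filter filterByExpr kept 14731 of 21274 genes that had any count, and TMM gave the scaling factors. The SE is the log2 fold change divided by the square root of F. Log2 CPM for components and correlations used a prior count of 2. Lengths and 3′ UTRs of at least 20 bases came from GENCODE 29. Classes were described by counts and medians, without a set test. The fit was tested on simulated counts. Alternatives were DESeq2 1.42.0, limma voom (limma 3.58.1), other size factors, no filter, a replicate block, each library left out, the longest transcript and the shortest 3′ UTR.

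The members and lists were chosen with earlier results of these data known. All 10 members are named, with up to 4 genes of smallest p per pathway list and the 5 genes most like BAK1. APAF1, BCL2L2, TNFRSF10A, the untested BCL2L10, BCL2L14, BOK and HRK, and the markers and overlapping genes named, lie outside that rule. Some genes that the rule would name are not reported here.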

Additional observations from a re-analysis of the deposited data

How the results depend on the processing

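The number of lower genes, 4 by the edgeR fit, was 41 with no filter on low counts, 11 by DESeq2 and 9 with the replicate block. The number of higher genes, 0, was 11 with no filter and 2 by DESeq2. With 1 library left out there were 3 to 14 lower (14 without control library 3) and 0 to 2 higher genes. BAK1 was the 1 member called with no filter; the cause was not tested.

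Over 99 alternative values for the 9 tested members 89 kept their direction and side of the threshold, 9 changed sign and 1, for BAK1, passed. Leave-one-out fits gave log2 fold changes from -0.11 to 0.05 for BCL2, -0.39 to 0.18 for BCL2A1, -0.08 to 0.09 for BCL2L11 and -0.17 to 0.05 for BID, and with the replicate block BCL2L11 was at 0. The guardian median ran from -0.31 to -0.06. Without control library 1, an alternative for the pathway lists chosen after seeing the data, the caspase list had a median of 0.01 and the list of genes acting on the family 0. With the shortest annotated 3′ UTR 1 member, BAK1, held an 8mer in place of 4.

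Same-numbered libraries did not deviate together (r = 0.06, 0.01 and -0.02), and r of the other pairs ran from -0.06 to 0.05. A correlation over all tested genes with 3 libraries per group cannot settle whether same-numbered samples were handled together. The replicate block called 0 members. Depth limits BBC3, BAX, BCL2A1 and BCL2L1, each under 100 counts in every library.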
